A study of Mus musculus with 96 samples.

Results

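Piericidin, an inhibitor of complex I of the electron transport chain (ETC), was compared with its DMSO vehicle in untransduced C2C12 myotubes. The comparison rests on 6 of the 96 RNA-seq samples of the series, chosen by their labels: 3 libraries of DMSO-treated myotubes and 3 libraries of myotubes given 0.5 µM piericidin. C2C12 is an immortalized mouse myoblast line whose cells leave the cell cycle and fuse into multinucleated myotubes in low serum. In all 6 samples the cells had spent 4 days in low-serum media, were treated for 10 hr in media with glucose and glutamine but without pyruvate or uridine, and carried no transgene. The model is a single cell line in culture, the libraries are bulk RNA, and the labels do not say that replicates came from separate cultures, so p-values measure the spread between these samples, which may be technical. In bulk RNA, fewer cells of a type and less of a transcript per cell cannot be told apart.

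Other libraries were used to place this response. Piericidin was also given to myotubes transduced with an adenovirus for GFP (2 DMSO and 2 piericidin samples), to myotubes transduced for GFP with LbNOX, a bacterial water-forming NADH oxidase of the cytosol (3 and 3), to post-mitotic cells after 1 day in low serum (3 and 3), and to control myoblasts that carried a doxycycline-inducible luciferase and were kept in doxycycline (3 and 3). The dose was 0.5 µM for 10 hr in each. Untransduced day 4 myotubes were also given 0.5 µM antimycin, a complex III inhibitor, or 1 µM oligomycin, an ATP synthase inhibitor, alone or with piericidin, or 0.5 µM of the uncoupler BAM15 or a 5% oxygen atmosphere from the night before treatment onward, each with or without oligomycin (3 samples each).

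Complex I takes electrons from NADH, passes them to coenzyme Q and pumps protons, so its inhibition stops regeneration of NAD+ in mitochondria, lowers oxygen use and removes a source of the proton gradient. Cells can make ATP by glycolysis instead, and cytosolic NADH can then be reoxidized by lactate dehydrogenase. The HIF transcription factors are marked for degradation by prolyl hydroxylases that need oxygen, and HIF drives genes for glycolysis, lactate export and mitophagy when oxygen is short. The integrated stress response (ISR) is the pathway by which eIF2α kinases slow translation and induce the transcription factor ATF4, which drives genes of amino acid synthesis, its own feedback regulators and the secreted hormones GDF15 and FGF21.

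The 6 libraries held 6458295 to 11086935 estimated counts with a median of 10189496, and the piericidin library with the lowest total was the shallowest of the whole series. An rRNA gene took 27.1% to 29.6% of the counts with DMSO and 27.4% to 31.1% with piericidin, and no count fell on a transgene. Levels are given here as CPM, counts scaled to library size after TMM normalization, which compare samples for 1 gene but not genes with each other. The cells carried the markers of myotubes: Myh3, the embryonic myosin heavy chain, ran from 1801 to 2034 CPM in the 6 samples, and all 33 genes of the sarcomere list passed the count filter. The summed level of 24 proliferating cell markers was 640 to 746 CPM with DMSO and 574 to 611 with piericidin, and the sum of 16 tested markers of undifferentiated mononucleated cells and fibroblasts was 7146 to 7482 with DMSO and 7769 to 8030 with piericidin. Of the 19 genes in the latter list, Tcf21, Thy1 and Lum were too low to test, with at most 14 counts in a sample. The groups overlapped in neither sum, and the part of either cell population in the results below was not tested.

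Piericidin lowered genes of glycolysis and the HIF response in myotubes and raised a smaller group that included Nmrk2 of NAD synthesis, the ISR genes Trib3 and Gdf15 and the actin gene Acta1. Of 12491 genes tested with edgeR's quasi-likelihood F test, 1123 were called at a Benjamini-Hochberg adjusted p under 0.05, which is 8.99% of those tested. Of these, 519 (4.15%) were higher and 604 (4.84%) lower with piericidin. Most of the changes were small: the median absolute log2 fold change of a called gene was 0.38, and 88 genes changed at least 2-fold, 34 upward and 54 downward. The 3 samples of one group all lay above the 3 of the other for 1096 of the called genes (97.6%) and for 26.2% of all genes tested. The count depended on the number of samples: leaving out 1 replicate number from both groups gave 644 to 705 calls, and leaving out 1 of the 6 samples gave 814 to 919.

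**Figure D1:**
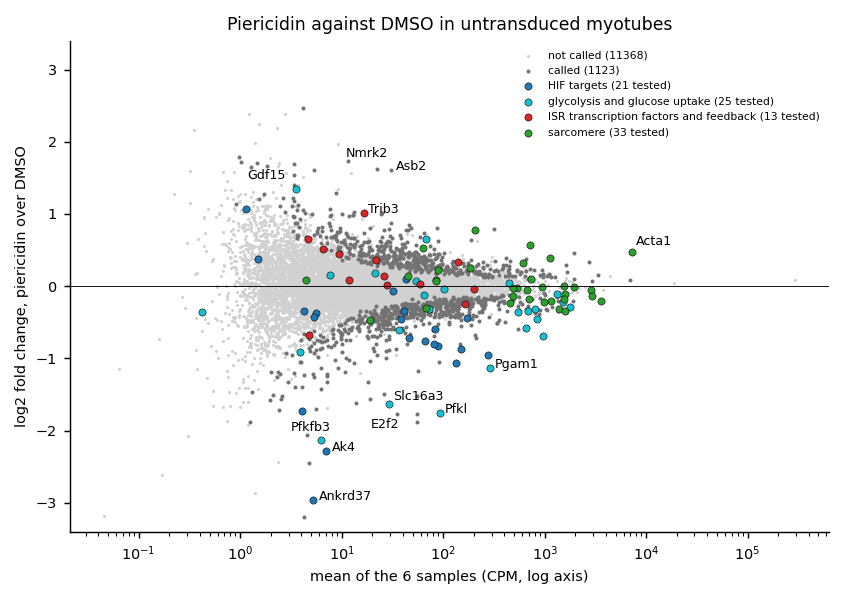
Log2 fold change with piericidin against the mean level of the 6 samples (CPM, log axis) for the 12491 genes tested, with called genes in dark gray and members of 4 gene lists in color. Ankrd37, at -2.96, lies lowest of the named genes, most HIF target and glycolysis genes lie below 0, and the sarcomere genes lie close to 0 on either side.

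Most of the HIF targets fell. Of 21 genes of this list that were tested, 14 were called lower, 0 were called higher, and the median log2 fold change was -0.60, beside 4.84% called lower and a median of 0.007 over all genes tested. In 17 of the 21 (81.0%) the groups did not overlap, beside 26.2% of all genes tested. Ankrd37 (ENSMUSG00000050914, chr8:45996902-46005707), a HIF target of little-known function, had 7.29, 9.33 and 11.4 CPM in the DMSO samples and 0.482, 1.12 and 1.68 CPM in the piericidin samples. Every piericidin sample was below every DMSO sample, and the level was 7.79-fold lower (log2 fold change -2.96, SE 0.268, adjusted p = 2.65e-08, edgeR). Ak4 (ENSMUSG00000028527, chr4:101419277-101466995), the adenylate kinase of the mitochondrial matrix, went from 8.52, 12 and 14.8 CPM to 0.803, 2.25 and 3.53 CPM, a log2 fold change of -2.29 (SE 0.285). Both groups were spread widely for Ak4, with the shallowest library lowest. Genes named for the size of their change, such as Ankrd37, Ak4, Pfkl, E2f2, Trib3 and Nmrk2, were taken only where the groups did not overlap, so for them this is a description.

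Among the more abundant members, Bnip3, a mitophagy receptor of the outer mitochondrial membrane, had 151, 182 and 218 CPM with DMSO and 81.1, 88.1 and 93.6 CPM with piericidin (log2 fold change -1.06, SE 0.0948, adjusted p = 2.03e-08, edgeR). P4ha1, a subunit of the prolyl hydroxylase that modifies collagen, had 317, 354 and 413 CPM against 185, 187 and 187 CPM, and a log2 fold change of -0.95. The piericidin samples of P4ha1 lay close together while the DMSO samples spread widely, and the groups did not overlap. Adm, the gene of the vasodilator peptide adrenomedullin, fell by 1.73 on the log2 scale, Ndrg1, a stress-responsive gene, by 0.86, Egln3, itself a HIF prolyl hydroxylase, by 0.83, Pdk1, which inhibits pyruvate dehydrogenase, by 0.76, and Higd1a, a small protein of the inner mitochondrial membrane, by 0.72. The list did not move as a whole: 18 of the 21 values were negative and 3 positive, the highest at 1.06 and not called. Car9, carbonic anhydrase IX, stood at a mean of 42.3 CPM with DMSO and 44.5 with piericidin (adjusted p = 0.853, edgeR), and Vegfa, the vascular growth factor, at 4.87 and 3.72 (adjusted p = 0.407, edgeR).

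Genes of glycolysis fell as well, some with the smallest adjusted p-values of the comparison. Of 25 tested genes of glycolysis and glucose uptake, 16 were called lower and 2 higher (72% called, beside 8.99% of all genes), with a median log2 fold change of -0.32. Pfkl (ENSMUSG00000020277, chr10:77986947-78010083), the liver-type subunit of phosphofructokinase, the committed step of glycolysis, had 130, 134 and 170.0 CPM with DMSO and 45.5, 40.5 and 43.0 CPM with piericidin. All 3 piericidin samples were far under the lowest DMSO sample, and the level was 3.37-fold lower (log2 fold change -1.75, SE 0.0804, adjusted p = 1.81e-13, edgeR). Slc16a3 (ENSMUSG00000025161, chr11:120948480-120960868), which encodes the lactate exporter MCT4, had 38.7, 41.1 and 53 CPM against 14.9, 12 and 16.1 CPM and was 3.09-fold lower. Pgam1 (ENSMUSG00000011752, chr19:41911923-41918660), phosphoglycerate mutase, had 365, 402 and 437 CPM against 181, 185 and 183 CPM and was 2.19-fold lower. Its processed copy Pgam1-ps2 can share reads with it, so how counts split between them is uncertain.

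The steps of glycolysis did not move by the same amount. Pfkfb3, which makes the allosteric activator of phosphofructokinase, fell by 2.13 on the log2 scale, from 6.16, 11.9 and 13 CPM to 0.643, 3.27 and 2.65 CPM. Ldha, the lactate dehydrogenase subunit that favors lactate formation, had 1098, 1174 and 1266 CPM with DMSO and 681, 748 and 764 CPM with piericidin (log2 fold change -0.69, SE 0.042, adjusted p = 3.05e-11, edgeR). The groups were again apart, as they were for Eno1 (enolase, -0.58) and Tpi1 (triose phosphate isomerase, -0.46). Slc2a1, the basal glucose transporter GLUT1, fell by 0.60. Falls were smaller for Pkm (pyruvate kinase, -0.28), Aldoa (aldolase, -0.21) and Eno3, the muscle enolase, at -0.11. The muscle isoforms Pfkm and Pgam2 differed by 0.04 and -0.03 (adjusted p = 0.717 and 0.856, edgeR), in contrast with the isoforms Pfkl and Pgam1 above; the difference between isoforms was not tested.

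Hk2 and Slc2a4 rose within the same list. Hk2, the insulin-responsive hexokinase of muscle, had 49.6, 48.9 and 58.2 CPM with DMSO and 82.9, 85.6 and 78.0 CPM with piericidin, with no overlap between groups (log2 fold change 0.65, SE 0.092, adjusted p = 2.77e-05, edgeR). Slc2a4, the insulin-responsive glucose transporter GLUT4, had 1.95, 1.81 and 2.27 CPM against 4.82, 5.42 and 5.12 CPM and was 2.55-fold higher (log2 fold change 1.35, SE 0.191). Slc2a4 was scarce in every library, but every piericidin sample was above every DMSO sample. Of a list of the glucose-sensing factor MondoA, its relatives and genes that respond to it, 5 could be tested, of which 2 were called lower and 1 higher, beside 4.84% and 4.15% of all genes. Txnip fell by 0.62 and Klf10 by 0.69, and Arrdc3 rose by 0.43, a call lost without DMSO sample 1 or piericidin sample 1 (adjusted p = 0.0614 and 0.0604, edgeR).

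**Figure D2:**
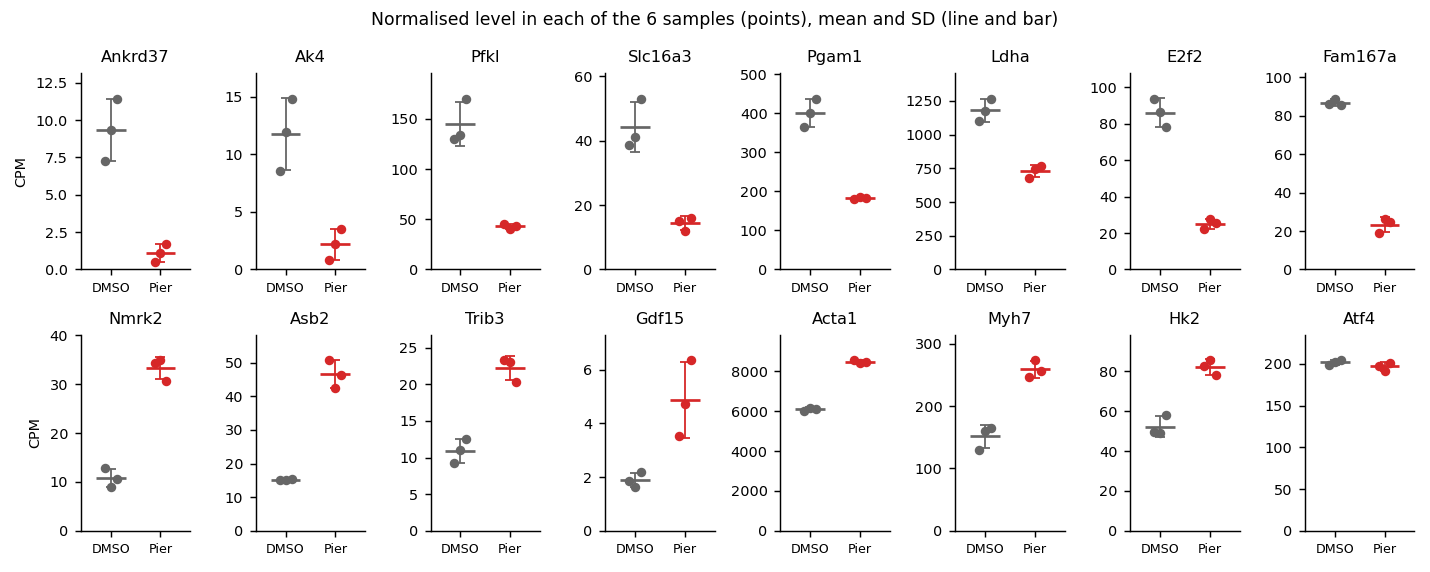
Normalized level (CPM) of 16 genes in each of the 3 DMSO and 3 piericidin samples (points), with the mean (line) and SD (bar) on axes that start at 0. The groups do not overlap for any gene shown except Atf4, whose DMSO samples lie at 199 to 205 CPM and whose piericidin samples lie at 191 to 202 CPM.

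The promoters of these genes were read from RefSeq (GRCm38.p6), from 250 bases before to 50 bases after each start, because HIF binds a short DNA core, ACGTG, read here on both strands. Of the 30 HIF target and glycolysis genes called lower, 27 had an entry, and 18 of these (66.7%) held the core, beside 2748 of 9224 tested genes with an entry (29.8%) and 21.8% of all 27025 genes with an entry. The lists are made of known targets, so the share describes them and is no independent evidence. The E-box CACGTG, which contains the core, was in 14.8% of the 27 and in 12% of the tested genes. Pfkl held no match in this window. Windows of 4 genes that fell are printed below, from 5′ to 3′ along the gene, with matches to the core in capitals, to show how these matches sit near the start.

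Ankrd37, chr8:45999801-46000100, minus strand: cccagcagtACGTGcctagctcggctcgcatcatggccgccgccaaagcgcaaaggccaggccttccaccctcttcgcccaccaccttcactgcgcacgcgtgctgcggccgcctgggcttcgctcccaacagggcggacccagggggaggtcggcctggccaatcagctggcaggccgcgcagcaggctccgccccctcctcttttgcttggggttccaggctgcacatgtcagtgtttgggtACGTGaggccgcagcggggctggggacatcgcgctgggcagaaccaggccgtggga
Pgam1, chr19:41911621-41911920, plus strand: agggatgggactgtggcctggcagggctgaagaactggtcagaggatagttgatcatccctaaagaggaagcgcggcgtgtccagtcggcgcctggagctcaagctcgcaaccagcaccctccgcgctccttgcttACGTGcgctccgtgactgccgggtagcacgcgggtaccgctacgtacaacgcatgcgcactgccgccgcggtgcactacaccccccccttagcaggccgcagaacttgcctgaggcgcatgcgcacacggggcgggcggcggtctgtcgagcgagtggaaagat
Slc16a3, chr11:120948817-120949116, plus strand: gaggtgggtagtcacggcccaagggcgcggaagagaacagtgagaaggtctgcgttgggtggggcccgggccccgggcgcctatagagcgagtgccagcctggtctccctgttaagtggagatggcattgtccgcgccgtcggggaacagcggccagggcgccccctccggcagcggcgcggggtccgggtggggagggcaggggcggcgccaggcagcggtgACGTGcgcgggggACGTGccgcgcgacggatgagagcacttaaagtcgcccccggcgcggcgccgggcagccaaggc
Ldha, chr7:46845554-46845853, plus strand: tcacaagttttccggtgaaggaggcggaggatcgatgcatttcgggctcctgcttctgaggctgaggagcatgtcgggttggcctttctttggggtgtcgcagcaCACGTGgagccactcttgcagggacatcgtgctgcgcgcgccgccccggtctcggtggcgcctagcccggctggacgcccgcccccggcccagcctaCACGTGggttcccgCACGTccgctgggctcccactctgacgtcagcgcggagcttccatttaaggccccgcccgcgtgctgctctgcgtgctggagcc

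In Ankrd37 the matches begin 241 and 6 bases before the start, in Slc16a3 27 and 14 bases before it, and in Pgam1 114 bases before it. Ldha has a second start in the table whose window held no match, and its window printed here has 5 matches, counted on both strands, that begin between 145 and 34 bases before the start, and the pairs at 145 and 144 and at 48 and 47 are the same palindromic letters read on either strand.

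The fall of HIF and glycolysis genes was also present in transduced myotubes, in libraries that shared no sample with the 6. In GFP myotubes, where 383 of 12397 genes (3.09%) were called for piericidin, 23 of the 30 genes were called lower, 0 were called higher and their median log2 fold change was -0.85. With 1 replicate number left out, which leaves 1 GFP sample a group and takes the spread from the other transduced groups, 143 to 155 genes and 16 to 17 of the 30 were called, and with the 4 GFP samples alone 27 genes and 10 of the 30 were, at medians of -0.85 to -0.78. In LbNOX myotubes, where 841 genes (6.78%) were called, 27 of the 30 were called lower, 0 were called higher and the median was -1.04, and with 1 replicate number left out 347 to 430 genes and 24 to 25 of the 30 were called. Pfkl had 183 and 182 CPM in the GFP myotubes with DMSO and 55.9 and 54.6 CPM with piericidin, and in LbNOX myotubes it had 229, 242 and 189 CPM against 73.3, 71.7 and 62.3 CPM. The log2 fold changes of Pfkl were -1.73 and -1.67 in these groups, close to the -1.75 without transduction.

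In myoblasts, where 59.2% of all genes were called, 16 of the 30 were called lower and 5 higher with a median of -0.38, and of the 14 HIF targets among them 5 were called lower and 4 higher with a median of -0.02. Day 1 cells gave smaller values for the same genes. There, 388 genes (3.1%) were called for piericidin, 8 of the 30 were called lower and the median was -0.15, and with 1 replicate number left out 168 to 199 genes and 2 to 5 of the 30 were called. Tested as an interaction, the response differed between day 4 myotubes and day 1 cells at 44 of 12501 genes (0.352%), 12 of them higher and 32 lower in myotubes, and 9 of the 30 genes were among those lower. The 30 were chosen as lower in the same 6 myotube samples that enter the interaction, which favors a more negative myotube response, so this count is a description. Pfkl went from 75.7, 85.4 and 75.2 CPM to 64.7, 51.1 and 59.2 CPM in day 1 cells, a log2 fold change of -0.43, and its interaction was -1.32 (SE 0.14, adjusted p = 9.62e-05, edgeR). The day 1 cells had less Pfkl with DMSO than the day 4 myotubes, whose samples stood at 133, 136 and 173 CPM in the fit of the 3 cell states. Slc16a3, with an interaction of -1.15, also stood lower in day 1 cells, at a mean of 10.0 CPM with DMSO against 45.1 in myotubes. The interaction count is sensitive to the replicates, at 5 to 22 genes, of which 2 to 7 are among the 30, with 1 replicate number left out, and it rose to 224, with 20 of the 30, with no count filter and to 138, with 17 of the 30, with the DESeq2 Wald test.

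**Figure D3:**
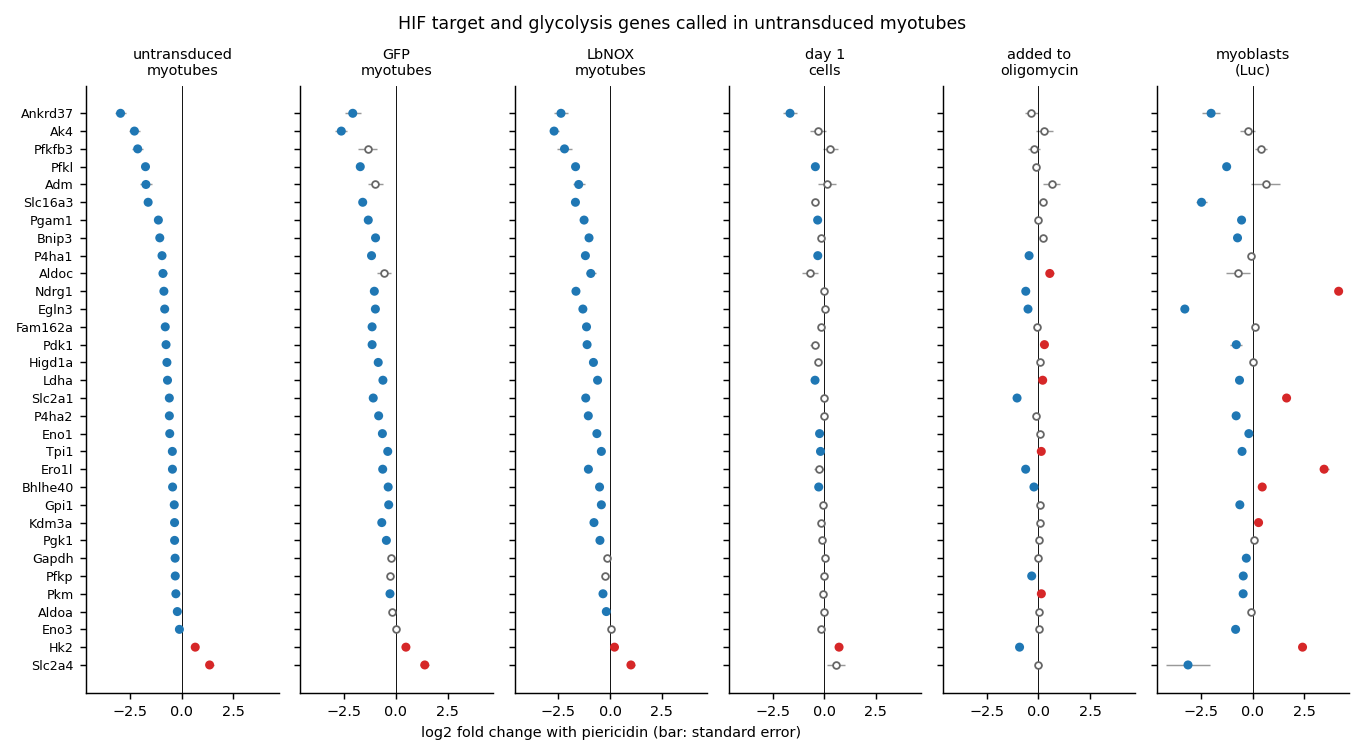
Log2 fold change with piericidin and its standard error for the HIF target and glycolysis genes called in untransduced myotubes, in that comparison and in 5 others, with called genes filled. Nearly all points but those of Hk2 and Slc2a4 lie left of 0 in the 3 kinds of myotube without oligomycin, points lie nearer to 0 in day 1 cells and when piericidin was added to oligomycin, and they lie on both sides of 0 in myoblasts.

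Across all called genes, the sign mostly matched in transduced myotubes and day 1 cells, and less so in myoblasts. Of 1120 called genes tested in both, 94.9% had the same sign in GFP myotubes and 94.6% in LbNOX myotubes, beside 66.0% and 66.4% of all genes. In GFP myotubes 279 were called in the same direction and 0 in the opposite, which is 24.8% of the genes called here and 72.8% of those called there, and in LbNOX myotubes 493 were (43.9% and 58.6%), with 0 opposite. Day 1 cells shared the sign of 83.8% of 1116 genes, beside 62.8% of all genes, with 188 called in the same direction and 2 in the opposite. Myoblasts shared the sign of 56.8% of 1116 genes, beside 51.5% of all genes, with 456 called in the same direction and 314 in the opposite.

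The transcription factor genes E2f2 and Fosl1 were among the genes outside metabolism that fell most. E2f2 (ENSMUSG00000018983, chr4:136172394-136196057), an activator E2F of the cell cycle, had 93.7, 86.7 and 78.0 CPM with DMSO and 22.0, 27.7 and 25.6 CPM with piericidin. The groups were far apart, and the level was 3.41-fold lower (log2 fold change -1.77, SE 0.0933, adjusted p = 2.59e-12, edgeR). Mki67, the proliferation marker, differed by -0.18 (adjusted p = 0.66, edgeR) and the E2F target Ccne1 by -0.25 (adjusted p = 0.542), whereas of 24 proliferating cell markers 1, Rrm2, a ribonucleotide reductase subunit, was called (log2 fold change -0.38), a share near the 4.84% of all genes called lower. The summed level of the 24 was nonetheless lower, at 574 to 611 CPM with piericidin against 640 to 746 with DMSO. E2f2 also fell in GFP myotubes (-1.43) and LbNOX myotubes (-1.53), and in day 1 cells its value was -0.32 (adjusted p = 0.145, edgeR), with an interaction of -1.45 (SE 0.161, adjusted p = 0.000139, edgeR).

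Other genes with large falls are less tied to a shared function. Fam167a, of poorly known function, had 85.9, 88.8 and 85.8 CPM with DMSO and 19.0, 26.2 and 24.8 CPM with piericidin, a log2 fold change of -1.88. Scml4, a Polycomb-related gene, fell by 1.76, Nrxn3, a neurexin, by 1.62, Gja5, the gap junction protein connexin 40, by 1.52, and Tas1r1, a subunit of the amino acid taste receptor, by 1.5. Asprv1, a protease of skin, fell by 1.42, the little-studied Susd5 by 1.33 and Lrrc26, an auxiliary potassium channel subunit, by 1.32. Of these 8 genes, 7 were also called lower in GFP and in LbNOX myotubes, beside 3.09% and 6.78% of all genes called in either direction. The exception was Asprv1, at -0.08 and -0.26.

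Immediate early genes, which growth factor signals induce within minutes, were mostly lower. Of 13 tested, 7 were called lower and 1 higher (61.5% called, beside 8.99% of all genes), with a median log2 fold change of -0.42. Fosl1, an AP-1 subunit, had 7.8, 6.8 and 11 CPM with DMSO and 2.41, 2.66 and 2.73 CPM with piericidin (log2 fold change -1.70, SE 0.273, adjusted p = 0.000144, edgeR). Egr2 fell by 0.91, Ier3 by 0.90 and Egr1 by 0.37, and Dusp6, a feedback phosphatase of the ERK pathway, fell by 0.60. Nr4a1, an orphan nuclear receptor gene of the same class, moved the other way. It had 15.8, 17.7 and 16.7 CPM with DMSO and 33.1, 35.5 and 32.8 CPM with piericidin, and it was 2.02-fold higher (adjusted p = 2.59e-07, edgeR), a gain also seen in GFP (1.04) and LbNOX (1.16) myotubes.

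Some transcripts tied to the ISR rose, weakly and in part, and the activity of the pathway itself was not measured. The counts that follow stand beside 4.15% of all genes called higher and 4.84% called lower. Of 13 tested ISR transcription factor and feedback genes 4 were called higher and 0 lower, with a median log2 fold change of 0.14. The values of 10 were positive and of 3 negative, the lowest at -0.68 and not called. Of 13 tested ATF4 target enzymes of amino acid and one-carbon metabolism 6 were called higher and 1 lower (median 0.19). Both mitokines rose. Of 9 tested amino acid transporters, which ATF4 also drives, 1 was called higher (Slc3a2, 0.21) and 2 lower (Slc1a4, -0.39, and Slc38a2, -0.21), and of 20 cytosolic tRNA synthetases, likewise ATF4 targets in part, 0 were called higher and 2 lower. The ISR list was unstable: its median was 0.029 without the 2 samples of replicate number 1, and 2 genes were called higher without DMSO sample 2. With the 6 samples alone 2 were called higher and 1 lower. Trib3 (ENSMUSG00000032715, chr2:152337422-152344032), a pseudokinase that restrains ATF4, had 9.24, 11 and 12.6 CPM with DMSO and 23.3, 23.0 and 20.4 CPM with piericidin. The samples did not overlap, and the level was 2.02-fold higher (log2 fold change 1.01, SE 0.1, adjusted p = 1.27e-07, edgeR). Gdf15 (ENSMUSG00000038508, chr8:70629393-70632456), a hormone that lowers appetite, had 1.85, 1.63 and 2.17 CPM against 3.54, 4.70 and 6.35 CPM and was 2.65-fold higher, and Fgf21, a hormone of fasting, had 29.5, 30.4 and 26.1 CPM against 41.0, 40.8 and 34.8 CPM (log2 fold change 0.43, adjusted p = 0.00193, edgeR). Gdf15 was scarce and its piericidin samples were spread, but none reached down to the DMSO samples.

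Among the enzymes, Cth, which makes cysteine from cystathionine, had 1.95, 2.45 and 0.850 CPM with DMSO and 4.50, 4.80 and 5.91 CPM with piericidin (log2 fold change 1.54). Pck2, the mitochondrial phosphoenolpyruvate carboxykinase, rose by 0.56, Aldh1l2 by 0.37, Gpt2 by 0.33 and Phgdh, the first enzyme of serine synthesis, by 0.21. Asns, the asparagine synthetase often used as an ISR readout, stood at a mean of 103 CPM with DMSO and 112 with piericidin (adjusted p = 0.234, edgeR). Atf4 itself had 199, 202 and 205 CPM with DMSO and 198, 191 and 202 CPM with piericidin, overlapping groups with a log2 fold change of -0.04 (adjusted p = 0.741, edgeR). ATF4 is controlled mainly at translation, which these libraries do not measure. Ddit3, the stress factor CHOP, rose by 0.36 (adjusted p = 0.00887) and Atf3 by 0.65 (adjusted p = 0.0463, edgeR), but the call of Ddit3 was lost without DMSO sample 2 (adjusted p = 0.0662, edgeR). That of Atf3 was lost without any 1 of the DMSO samples or of piericidin samples 1 and 3, with adjusted p of 0.053 to 0.223 (edgeR). Chac1, a glutathione-degrading ATF4 target, and Ppp1r15a, which restores translation, differed by 0.14 and 0.01 (adjusted p = 0.453 and 0.995, edgeR).

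The ATF4 element TGATGNAA, searched on both strands, was in the promoters of 5 of the 9 called ISR, ATF4 and mitokine genes that had an entry (Atf3, Fgf21, Pck2, Pycr1 and Trib3), beside 2.73% of tested genes, and in 0 of the 27 HIF and glycolysis promoters. These lists too are made of known targets, so the share describes them and is no independent evidence. At a share of 2.73%, 27 promoters would hold few matches, so the 0 tells little. The window of Trib3, the ISR gene with the smallest adjusted p, is printed with its match, which begins 15 bases after the start, in capitals.

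Trib3, chr2:152344011-152344310, minus strand: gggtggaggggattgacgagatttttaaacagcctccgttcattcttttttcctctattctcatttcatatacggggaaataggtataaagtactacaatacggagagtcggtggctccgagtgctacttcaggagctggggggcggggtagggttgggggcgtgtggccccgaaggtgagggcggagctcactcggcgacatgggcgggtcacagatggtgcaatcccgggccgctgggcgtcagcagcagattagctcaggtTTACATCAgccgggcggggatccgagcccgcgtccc

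The 12 ISR, ATF4 and mitokine genes called higher gave the same direction in transduced myotubes, where 11 were called higher in GFP cells and 11 in LbNOX cells, and 2 were in day 1 cells, where 4 of the 12 values were negative. Over all genes, 3.09% in GFP cells, 6.78% in LbNOX cells and 3.1% in day 1 cells were called in either direction. The whole list of 13 ISR transcription factor and feedback genes also held members that went the other way. In GFP cells 5 were called higher and 0 lower, with the lowest log2 fold change at -1.01. In LbNOX cells 8 were called higher and 1 lower, with the lowest at -1.31. In day 1 cells 0 were called higher and 2 lower, with a median of -0.09, beside 3.1% of all genes called. The size of the response differed between myotubes and myoblasts. In control myoblasts piericidin changed 7403 of 12501 genes (59.2%), and the response differed between the 2 states at 5855 genes (46.8%). All 12 genes were called higher in myoblasts, with a median log2 fold change of 3.94, and all 12 interactions were called, with the myotube response lower. Trib3 rose from 9.75, 7.29 and 7.68 CPM to 294, 328 and 298 CPM in myoblasts, and Atf4 from a mean of 232 to 1185 CPM. In myotubes the same genes stayed within the values given above. Cell state, luciferase and doxycycline go together in this contrast and cannot be told apart.

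NAD metabolism was represented by a single large change. Of 13 tested genes of NAD synthesis and use, 2 were called higher and 1 lower, beside 4.15% and 4.84% of all genes, and the call of Nadsyn1 (0.50), which ends NAD synthesis from nicotinic acid, was lost without any 1 of 4 of the samples. Nmrk2 (ENSMUSG00000004939, chr10:81198170-81202051), the muscle kinase that turns nicotinamide riboside into a precursor of NAD, had 12.8, 9.06 and 10.6 CPM with DMSO and 34.4, 35 and 30.7 CPM with piericidin. The groups did not overlap, and the difference was 3.08-fold (log2 fold change 1.62, SE 0.136, adjusted p = 7.69e-09, edgeR). It was called higher at a like size in GFP myotubes (1.59), LbNOX myotubes (2.04) and day 1 cells (1.62), where it went from 11.3, 11.5 and 11.4 CPM to 33.1, 38.4 and 33.9 CPM. In myoblasts it had at most 0.458 CPM. Nampt, the rate-limiting enzyme of the salvage pathway from nicotinamide, fell by 0.41 (adjusted p = 0.00285, edgeR).

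Contractile genes moved in both directions by small amounts. Of 33 sarcomere genes 8 were called higher and 11 lower (57.6% called, beside 8.99% of all genes), with a median log2 fold change of -0.02, and the summed level of the list was 35491 to 37212 CPM with DMSO and 36877 to 37842 CPM with piericidin. Acta1, skeletal muscle actin, had 5999, 6176 and 6126 CPM against 8567, 8426 and 8479 CPM, a gain of 1.39-fold (SE of the log2 fold change 0.0221, adjusted p = 1.81e-13, edgeR). Myh7, the slow myosin heavy chain, had 130, 160 and 164 CPM against 246, 274 and 256 CPM (log2 fold change 0.77, adjusted p = 1.16e-06, edgeR). Myh4, the fastest adult myosin, rose by 0.57, while Myh1, another fast isoform, fell by 0.34, and Myh3 differed by -0.01 (adjusted p = 0.969, edgeR). The fall of Myh1 and the rise of Acta1 and Myh7 were each seen without overlap of the groups.

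Asb2 (ENSMUSG00000021200, chr12:103321142-103356001), a ubiquitin ligase subunit of muscle, had 15.1, 15.1 and 15.5 CPM with DMSO and 50.8, 42.6 and 46.4 CPM with piericidin, and was 3.05-fold higher (log2 fold change 1.61, SE 0.122, adjusted p = 1.54e-09, edgeR). The response was more positive in myotubes than in day 1 cells, where Asb2 had 11.3, 11.7 and 12.4 CPM with DMSO and 9.82, 12.8 and 11.8 CPM with piericidin (interaction 1.66, adjusted p = 0.000921, edgeR). Of the myogenic factors, Myog, myogenin, fell by 0.27 and Myf5, an early factor of the lineage, rose by 0.68. Prkag3, the muscle AMPK γ subunit, fell by 0.52, and Slc6a8, the creatine transporter, rose by 0.53.

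The remaining genes that rose most by the size rule covered varied functions. Atcayos, an antisense transcript, rose by 1.73, from 5.34, 5.8 and 4.81 CPM to 17.5, 18.7 and 16.8 CPM. The counting did not use strand, so its reads cannot be told apart from those of an overlapping gene. Cnksr1, a scaffold of Ras signaling, rose by 1.29, Igfn1, a muscle protein of the Z disc, by 1.07, Scara5, a ferritin receptor, by 1.02, Zim1, an imprinted zinc finger gene, and Fbxl22, an F-box protein of the sarcomere, by 1.00 each. Adora2b, an adenosine receptor, Nfkbil1, Fez1 and Lims2 rose by 0.97 to 0.99 and S1pr3, a sphingosine 1-phosphate receptor, by 0.88. The call of S1pr3 was lost without DMSO sample 1, DMSO sample 2 or piericidin sample 2, with adjusted p of 0.0867, 0.0877 and 0.121 (edgeR).

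**Figure D4:**
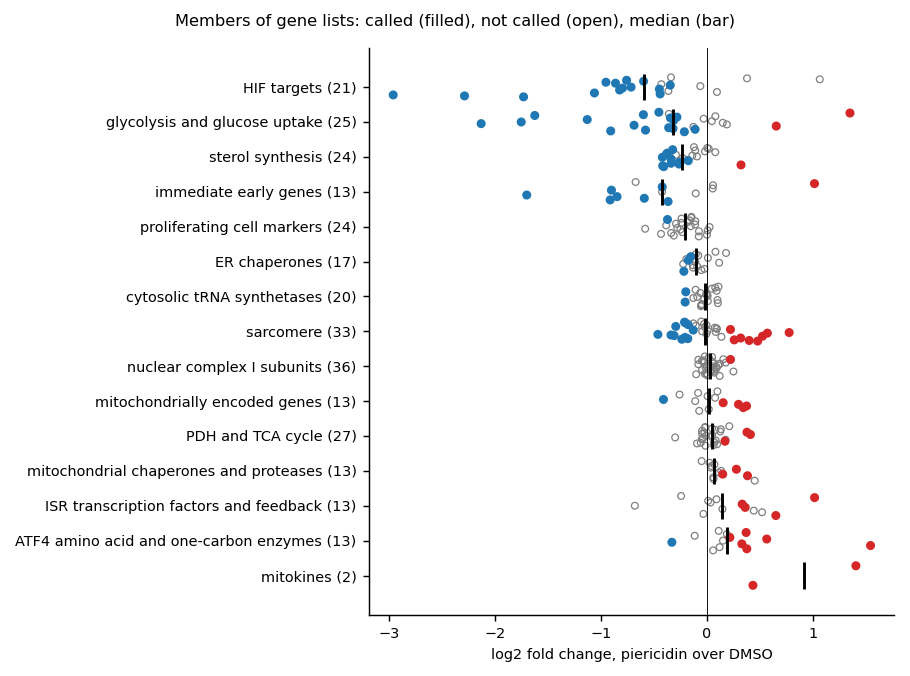
Log2 fold change with piericidin of the tested members of 15 gene lists, filled where called (red higher, blue lower) and open where not, with the median of each list as a bar. The medians of HIF targets (-0.60), immediate early genes (-0.42) and glycolysis (-0.32) lie left of 0, the complex I subunits and tRNA synthetases cluster at 0, and the mitokines lie to the right.

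Sterol synthesis genes fell modestly. Of 24 tested, 11 were called lower and 1 higher, beside 4.84% and 4.15% of all genes, with a median log2 fold change of -0.24. Cyp51, the lanosterol demethylase, fell by 0.41, Idi1, the isopentenyl diphosphate isomerase, by 0.34 and Sqle, squalene epoxidase, by 0.32, whereas Dhcr7, the last enzyme of a branch of the pathway, rose by 0.32. In GFP myotubes 2 of the 11 genes and in LbNOX myotubes 5 of the 11 were called lower, beside 3.09% and 6.78% of all genes called in either direction, and all 11 values were negative in each. In day 1 cells 0 of the 11 were called, with 5 values negative and 6 positive, and in myoblasts all 11 were called lower, beside 59.2% of all genes called.

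Nuclear genes of the inhibited complex moved little. Of 36 nuclear genes for complex I subunits 1 was called, Ndufs7, at 0.21, and the list median was 0.03, beside 8.99% called and a median of 0.007 over all genes tested. The call of Ndufs7 was lost without any 1 of 3 of the samples, DMSO 2, DMSO 3 or piericidin 1 (adjusted p up to 0.148, edgeR). Of 13 mitochondrially encoded genes 4 were called higher, among them mt-Co1 (0.34) and mt-Co2 (0.37), and mt-Nd2 was called lower, at -0.41, so that the share called (38.5%) was above that of all genes while the list median was 0.02. Of 13 mitochondrial chaperones and proteases 3 (23.1%) were called higher, the largest being Dnaja3 (0.38) and the count being 1 without DMSO sample 3, piericidin sample 2 or piericidin sample 3, and of 27 genes of pyruvate dehydrogenase and the TCA cycle 3 were, with Pdk2 at 0.41 and a count of 1 without DMSO sample 3. Gpd2, which feeds electrons of cytosolic NADH to coenzyme Q past complex I, rose by 0.55, from 21.5, 22.4 and 22.0 CPM to 33.3, 33.2 and 30.4 CPM (adjusted p = 0.00261, edgeR). Beside the 4.84% called lower over all genes, 3 of 17 ER chaperones (17.6%) and 2 of 20 tRNA synthetases (10%) were called lower, or 2 to 3 and 1 to 2 with 1 of the 6 samples left out. Of 14 NRF2 antioxidant genes, 15 clock genes and 18 ribosome biogenesis genes 1 each was called lower, shares near that of all genes, and each of these calls (Prdx1, Per2 and Bop1) was lost without some single samples.

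Few genes differed between piericidin and antimycin in myotubes when they were compared directly. Of 12491 genes 82 (0.656%) were called, 20 higher and 62 lower with piericidin, and 2 of them by at least 2-fold. None of the 30 HIF and glycolysis genes was called in either direction, while 8 of 13 ISR transcription factor and feedback genes and 11 of 13 ATF4 enzymes were lower with piericidin than with antimycin. With no count filter 1 of the 30 was called higher, and with the DESeq2 Wald test 1 was. The counts of ISR genes and ATF4 enzymes come from the main fit alone. Trib3 had 45.2, 46.3 and 38.6 CPM with antimycin, above every piericidin sample, and differed by -0.98 (SE 0.0873, adjusted p = 7.88e-07, edgeR). Gdf15 differed by -0.86, Atf3 by -0.92, Cdsn by -1.28 and Extl1 by -1.01. Among the genes higher with piericidin that met the rule for named genes, Fkbp11, at 0.54, and Gja5, at 0.50, differed most. The count is unstable: it was 28 without the samples numbered 2, 30 without those numbered 1 and 25 in a fit of these groups alone, and it was 291 with no count filter.

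Piericidin and oligomycin differed at 3508 genes (28.1%), and 10 of 13 ISR transcription factor and feedback genes and all 13 ATF4 enzymes tested were lower with piericidin. Trib3 stood at 278, 280.2 and 275 CPM with oligomycin, and its difference between piericidin and oligomycin was -3.65 (adjusted p = 4.57e-20, edgeR). Pfkl stood at 51.3, 48.0 and 43.4 CPM with oligomycin, a range that overlaps that of piericidin (difference -0.15, adjusted p = 0.192, edgeR). Nmrk2 stood at 13.5, 12.3 and 15.7 CPM with oligomycin, all under the piericidin samples (difference 1.27, adjusted p = 6e-08, edgeR). Asb2 stood at 3.25, 2.48 and 2.00 CPM with oligomycin, below the DMSO samples as well as below the piericidin samples.

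Added to oligomycin, piericidin changed 2607 genes (20.9%) in libraries that shared no sample with the main comparison, and its effects had another pattern. The 12 ISR, ATF4 and mitokine genes that rose with piericidin alone were all called lower when piericidin was added to oligomycin, and Trib3 went from the oligomycin values above to 65.2, 61.3 and 63.6 CPM. The 30 HIF and glycolysis genes had a median log2 fold change of 0.02 with 7 called lower and 5 higher. Nmrk2 rose to 30.4, 27.8 and 25.8 CPM (log2 fold change 1.02, adjusted p = 2.54e-06, edgeR). Over all 1123 genes called for piericidin alone, 255 were called in the same and 220 in the opposite direction.

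**Figure D5:**
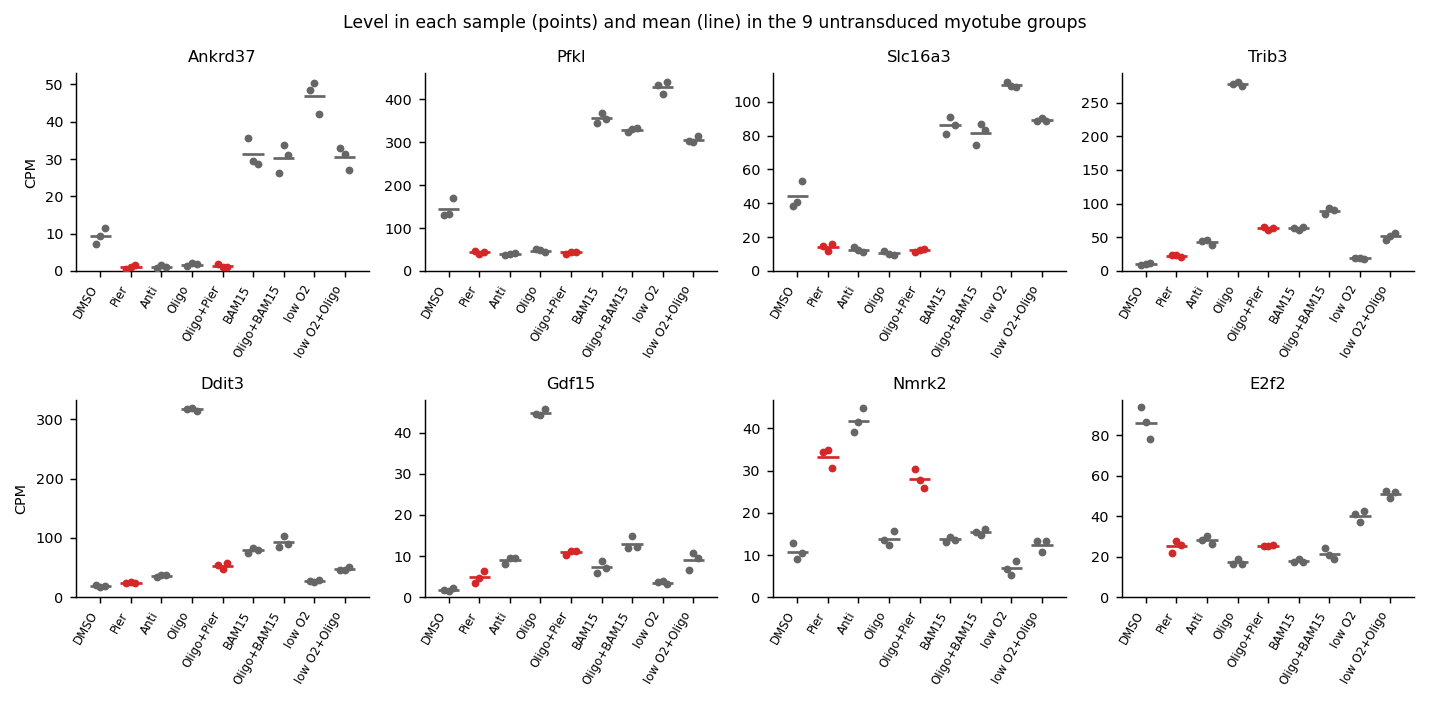
Level (CPM) of 8 genes in each sample (points), with the mean as a line, in the 9 untransduced day 4 myotube groups, with groups given piericidin in red. Ankrd37, Pfkl and Slc16a3 are low with piericidin, antimycin, oligomycin and oligomycin with piericidin and high with the uncoupler BAM15 or at low oxygen, each with or without oligomycin, Trib3, Ddit3 and Gdf15 are highest with oligomycin alone, and Nmrk2 is high in the groups given piericidin or antimycin.

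The levels across the 9 myotube groups place the piericidin values. Ankrd37 had a mean of 9.35 ± 2.07 CPM with DMSO (SD, n = 3 here and below), 1.09 ± 0.598 with piericidin, 1.13 ± 0.318 with antimycin, 1.72 ± 0.473 with oligomycin and 1.35 ± 0.427 with both oligomycin and piericidin. It was 31.3 ± 3.92 CPM with the uncoupler BAM15 and 47.0 ± 4.46 CPM at low oxygen. The 4 groups with an inhibitor and no uncoupler or low oxygen thus lay below DMSO, with overlapping samples among them, and the other 4 above it. These libraries do not measure oxygen use, and the cause of this order was not tested. E2f2 had another order, with the DMSO mean of 86.1 ± 7.89 CPM above all 8 other groups, which ran from 17.2 ± 1.5 CPM with oligomycin to 51.1 ± 1.96 CPM with oligomycin at low oxygen.

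Calls near the threshold rested on single samples. Of 153 called genes checked in this way, which the rules and the text name for the main comparison, 44 lost their call when at least 1 of the 6 samples was left out, and 109 kept it each time. Among them were Fos, at a log2 fold change of -0.85, and the ERK inhibitor Spry4, at -0.93, whose calls were lost without any 1 of the 6 samples (adjusted p up to 0.115 and 0.208, edgeR). Myh2, a fast myosin, at -0.46, and Ckmt2, the mitochondrial creatine kinase, at 1.18, lost theirs without any 1 of 4 samples. The calls of Ucp3, the muscle uncoupling protein, at 1.02, and Mthfd1l, a mitochondrial folate enzyme and the ATF4 target called lower, at -0.33, were lost without any 1 of 3.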

How the data were processed

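Of the 96 C2C12 samples with RNA-seq, 6 make up the main comparison. Libraries were Smart-seq2 on polyA RNA. Per the labels and the study's methods, the authors ran bcl2fastq 2.20.0.422, then kallisto 0.44 on the mouse transcriptome (mm10, GRCm38) with transgenes added, collapsed transcripts to genes and added up the flow cells. What they deposited are estimated counts of 54146 genes in whole numbers, neither normalized nor strand-specific. Estimated counts share reads among similar transcripts, so close copies of a gene are uncertain.

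Groups came from the sample labels. A gene was tested where some condition of the fit had 16 or more counts in each of its replicates. Tests were quasi-likelihood F tests of edgeR 4.0.16 (limma 3.58.1, R 4.3.3) with TMM, Benjamini-Hochberg adjustment over all genes of a comparison and a threshold of 0.05. The main fit held the 27 untransduced day 4 myotube samples, the others 15 transduced myotube samples and 18 samples of 3 cell states. The standard error (SE) is the absolute log2 fold change over the square root of F. Levels are TMM CPM, and folds of single genes come from the fit. The Wald test of DESeq2 1.42.0, the authors' choice, was an alternative. None of 6 pairs of replicates was identical. Precision is limited by 3 samples a group and by 6458295 to 11086935 counts per sample.

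The comparison, its tests and 35 gene lists were chosen with earlier results of these data known. Named genes are the 15 largest changes either way among called genes averaging 50 counts or more whose groups did not overlap (predicted genes, clones and pseudogenes left out), a set of landmark genes, 4 called members of each list either way, and the 5 largest either way for the contrasts with antimycin, myoblasts and day 1 cells. Outside this rule, and chosen after their values were seen, are the list members Aldoa, Car9, Egr1, Eno1, Eno3, Gpt2, Higd1a, Ldha, P4ha1, Pdk1, Pfkm, Pgam2, Phgdh, Pkm, Slc2a1, Sqle, Tpi1 and Vegfa. Promoters were searched with Python 3.11.15 from 250 bases before to 50 bases after the start, and several windows of a gene counted as 1. Code was tested on simulated data.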

Additional observations from a re-analysis of the deposited data

Results flagged for a closer look

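The response to piericidin was compared between myotubes and 2 other cell states by an interaction test in edgeR, and results past an adjusted p of 0.05 are given here with the difference in log2 fold change, myotubes minus the other state. Against myoblasts, 5855 genes differed. The named genes with a more negative response in myotubes were Fgf21 (-7.82, adjusted p = 6.72e-14), Extl1 (-7.38, adjusted p = 8.85e-10), Prg4 (-6.7, adjusted p = 1.3e-11), Atf3 (-6.64, adjusted p = 9.75e-14) and Gadd45a (-6.48, adjusted p = 1.11e-11). In myoblasts Fgf21 went from a mean of 0.115 to 37.4 CPM, whereas in myotubes, where it was present with DMSO, it went from 29.2 to 39.7 CPM in the same fit. Prg4, which encodes the lubricant lubricin, went from 0.398 to 36.6 CPM in myoblasts and from 6.72 to 5.90 CPM in myotubes. The myoblast DMSO levels of Fgf21, Extl1 and Prg4 rest on few counts, so the size of these differences is imprecise.

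The named genes with a more positive response in myotubes were Insc (6.45, adjusted p = 0.000254), Kank1 (6.06, adjusted p = 0.000119), Mrgprf (5.39, adjusted p = 1.64e-06), Camk1g (5.24, adjusted p = 0.000501) and Angpt1 (4.96, adjusted p = 8.81e-14). Insc, Kank1 and Camk1g were listed at 0 in all 3 piericidin-treated myoblast samples and Mrgprf in 2 of them, so the sizes fitted for these 4 depend on the prior count and are no bound. Angpt1, the gene of the vascular ligand angiopoietin 1, fell in myoblasts from a mean of 61.8 to 1.68 CPM and stood at 106 and 90.8 CPM in myotubes.

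Against day 1 cells, 44 genes differed. More positive in myotubes were Asb2 (1.66, adjusted p = 0.000921), Sema7a (1.05, adjusted p = 0.0113), Fst (0.83, adjusted p = 0.0121), Fhl1 (0.64, adjusted p = 2.3e-06) and Spon2 (0.62, adjusted p = 0.0474). Fhl1, a LIM protein of muscle, went from 239 to 415 CPM in myotubes and from 406 to 453 CPM in day 1 cells (means of 3 samples), whereas Fst, the myostatin antagonist follistatin, fell from 53.7 to 27 CPM in day 1 cells and stood at 95.2 and 85.2 CPM in myotubes. More negative in myotubes were E2f2 (-1.45, adjusted p = 0.000139), Pfkl (-1.32, adjusted p = 9.62e-05), Slc16a3 (-1.15, adjusted p = 0.0474), Egln3 (-0.86, adjusted p = 0.0372) and Ndrg1 (-0.83, adjusted p = 0.00349). These 10 were read from libraries of a state that also differed in the time spent in low serum.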

How the results depend on the processing

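The main count of 1123 was 1125 with DESeq2 size factors, 1072 with the DESeq2 Wald test, 894 with no count filter, 1030 with replicate number as a block, 974 with the 6 samples alone and 851 with 12 samples, and 644 to 919 with a replicate or sample left out. At least 2-fold changes numbered 88 in the main comparison, 2 against antimycin, 543 against oligomycin, 284 when added to oligomycin, 59 in GFP myotubes, 100 in LbNOX myotubes, 2610 in myoblasts, 26 in day 1 cells, and 2468 and 6 in the interactions with myoblasts and day 1 cells. With no count filter 291 genes differed from antimycin, 1362 were called in LbNOX myotubes, 224 differed between myotubes and day 1 cells, and 1 ISR gene was called lower. The DESeq2 Wald test gave 146 against antimycin, 596 in day 1 cells and 138 for the day 1 interaction. With only the groups compared there were 25 against antimycin, 27 in GFP myotubes and 70 for the day 1 interaction, 2 ISR genes were called higher and 1 lower, and the median of HIF targets was -0.72; with 12 samples, 46 differed from antimycin.

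Leaving out 1 replicate or sample gave 28 to 64 genes against antimycin, 1727 to 2078 for piericidin added to oligomycin, 143 to 155 in GFP myotubes (1 sample a group, assumed to vary like the other transduced groups), 347 to 430 in LbNOX myotubes, 168 to 199 in day 1 cells and 5 to 22 for the day 1 interaction. The ISR list then had 2 to 4 genes called higher and a median of 0.029 to 0.24, the HIF list a median of -0.70 to -0.52, and the sterol list 0 to 1 called higher and a median of -0.26 to -0.20. Of the genes that did not pass the test, Myh3 ran from -0.081 to 0.041, Pdk4 from -0.18 to 0.077 Ppp1r15a from -0.083 to 0.096, Pgam2 from -0.10 to 0.030 and Car9 from -0.14 to 0.28, changing sign; Ppp1r15a was -0.0042 with no count filter. Of the 30 genes named by size, 27 kept their call in all 15 alternatives, and Adora2b, Asprv1 and S1pr3 did not. The cause of these changes was not tested.

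Over all genes tested, samples with the same replicate number did not deviate together (correlations of 0.064, -0.027 and 0.002). The numbers were thus not taken as pairs. For some genes, such as Ankrd37, Ak4 and Bnip3, levels rose with replicate number in both groups. With replicate number as a block, 30 of the 30 HIF and glycolysis genes were still called lower. The day 1 interaction then gave 29 genes, and no other count moved by over 1.5 times. The depth of the piericidin library with 6458295 counts limits the levels of scarce genes such as Ankrd37 and Slc2a4.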
